A study of Drosophila melanogaster with 6 samples.

Results

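The Drosophila melanogaster genes vir-1, Dif and IKKbeta are 3 immune genes out of 2377 genes that carried a single current symbol on the spotted cDNA arrays of the study. They were taken as the spots annotated with exactly 1 of these symbols. Each gene had 1 clone printed as 2 neighbouring spots, 6 spots out of 16896 in all, and none of the 6 spots lacked a value on any array. The genes were selected on their measured SL2 over Kc167 ratios, with earlier results of the same arrays known: vir-1 for its large ratio and Dif and IKKbeta as measured genes of the Toll and Imd pathways. Their SL2 over Kc167 ratios are therefore a description and carry no test.

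The study compared untreated cells of 2 established lines, SL2 and Kc167, both derived from fly embryos and both with properties of blood cells. SL2 grew in CCM3 medium and Kc167 in a Schneider medium with 5% serum, each with gentamicin at 20 µg/mL and at 22 °C, so the line and its medium cannot be told apart. On each of 6 arrays, labelled cDNA of SL2 competed with labelled cDNA of Kc167. SL2 carried Cy5 on 3 arrays and Kc167 carried Cy5 on the other 3. Arrays with the same number in both dye orientations were averaged, which gave n = 3 replicates. Nothing in the labels ties the replicates to separate cultures. The p-values thus reflect only how much these samples varied, which may be technical variation, and their precision is limited by the small number of arrays.

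Values are given as the log2 ratio SL2/Kc167. The labels do not define the direction, which is likely from the titles, where SL2 comes first, and from the channels, where it is always the second. If the ratio ran the other way, all signs below would turn together. The log base is not stated and was taken as 2. The table holds no level of either line, so neither the abundance of the 3 transcripts nor the presence of blood cell markers could be checked. Of 15 hemocyte markers listed, 5 were measured. By limma all 5 differed between the lines, 2 with positive ratios (the SL2 side) and 3 with negative ratios (the Kc167 side), where 60.2% of all 7201 features tested did, 28.4% with positive and 31.8% with negative ratios. Of measured markers of other cell types, 3 of 3 neuron and glia genes, 1 of 2 muscle genes and 0 of 3 fat body genes passed; of the fat body genes 0 had an unadjusted p under 0.05, against 4652 of the 7201 features. The SL2-in-Cy5 array of replicate 1 stood apart: its correlations with the arrays of the other orientation lay between 0.64 and 0.73 across features, against 0.78 to 0.83 for the other 2 SL2-in-Cy5 arrays.

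Flies defend themselves through several pathways that also operate in cultured blood-like cells. In the Toll pathway, the Rel factors Dif and Dorsal are held in the cytoplasm by Cactus and enter the nucleus once it is degraded. In the Imd pathway, a kinase complex that contains IKKbeta acts on the Rel factor Relish. The gene vir-1 is known as a transcript induced by Drosophila C virus, in a response that needs JAK/STAT signalling, and it is used as a readout of that response.

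The induced gene vir-1 had one of the largest ratios on the SL2 side, while the ratios of the transcription factor gene Dif and the kinase gene IKKbeta lay close to 0. The mean log2 ratio of vir-1 was 2.79 ± 0.15 (SD, n = 3), which is 6.92-fold on a base of 2 and would be 16.3-fold on a natural base. Dif had -0.16 ± 0.24 and IKKbeta had 0.03 ± 0.11 (SD, n = 3 each). In a comparison of RNA from whole cultures, fewer expressing cells and less RNA per cell cannot be told apart. Over all 7201 features tested, the quartiles of the ratio were -0.27 and 0.23 and the median was -0.02.

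The ratio of vir-1 lay between 2.50 and 3.19 on all arrays. It was 2.83, 2.50 and 2.71 with SL2 in Cy5 (replicates 1, 2 and 3) and 2.73, 2.79 and 3.19 with Kc167 in Cy5. All 6 values lay far on the SL2 side, and the orientations overlapped. The array furthest from the rest was replicate 3 with Kc167 in Cy5. Within single arrays, vir-1 ranked between 10 and 15 from the top among the 7201 features. By its mean ratio it was number 14 among all features and number 2 among the 2216 named genes tested. Its 2 spots had a median gap of 0.10 over the 6 arrays, smaller than the 0.14 that was the median over 6824 clones. The mean without the array that stood apart was 2.77.

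**Figure D1:**
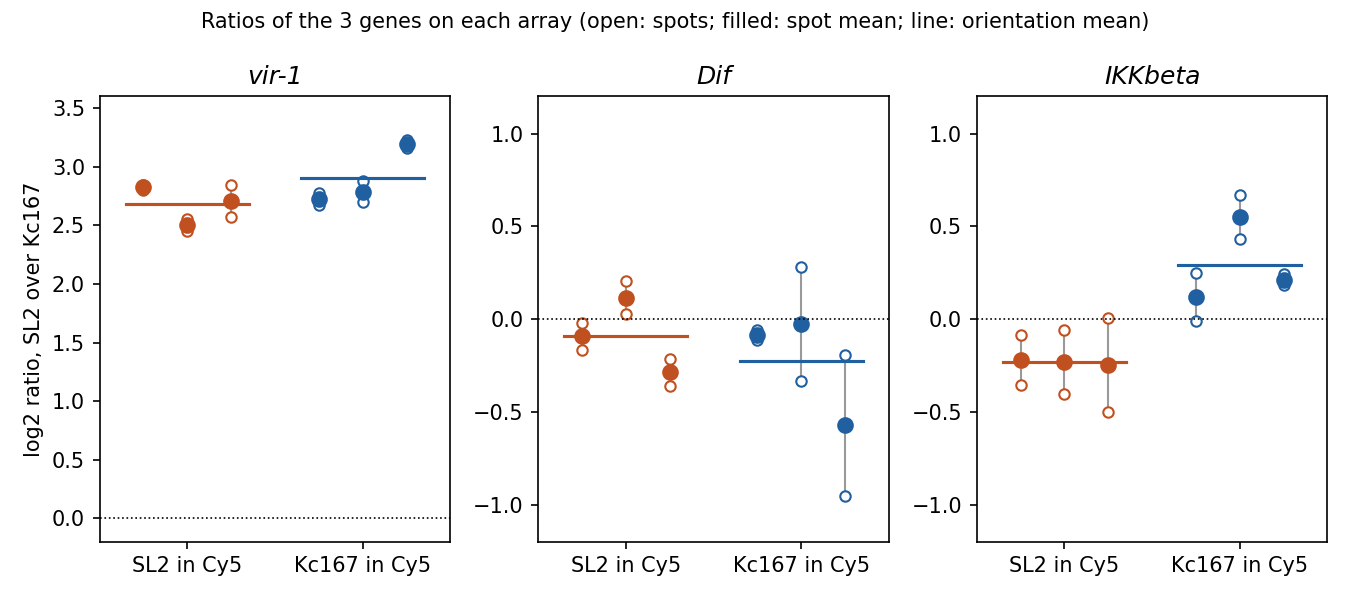
Log2 ratio of SL2 over Kc167 (vertical axis) for vir-1, Dif and IKKbeta on each of the 6 arrays, with the 3 SL2-in-Cy5 arrays left of the 3 Kc167-in-Cy5 arrays and replicates 1 to 3 from left to right in each. Open points are spots, filled points their mean and lines the mean of an orientation; the vir-1 axis has its own range. The vir-1 values lie between 2.50 and 3.19, the Dif means cross 0 among the SL2-in-Cy5 arrays, and IKKbeta lies below 0 with SL2 in Cy5 and above 0 with Kc167 in Cy5.

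Dif, a Rel factor of the Toll pathway, had the largest SD of the 3 genes over replicate means. Over single arrays IKKbeta ranged more widely, from -0.25 to 0.55 against -0.57 to 0.12 for Dif. The ratio of Dif was -0.09, 0.12 and -0.29 with SL2 in Cy5 and -0.09, -0.02 and -0.57 with Kc167 in Cy5. The signs were mixed, 5 of the 6 arrays lay below 0, and the orientations overlapped. The SD over replicates, 0.24, was larger than that of 93.0% of features, and the size of the mean ratio was larger than that of only 34.1% of features. Replicate 3 was the lowest in both orientations, and without it the mean was -0.02, against -0.16 with it. On the lowest array the 2 spots of the clone read -0.95 and -0.19, a gap of 0.76. The median gap of the spots was 0.16, and the widest gap was the one on that array.

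IKKbeta, a kinase of the Imd pathway, had a mean near 0 that combined opposite signs in the orientations. Its ratio was -0.22, -0.23 and -0.25 with SL2 in Cy5 and 0.12, 0.55 and 0.21 with Kc167 in Cy5. All 3 values of the first orientation lay on the Kc167 side and all 3 of the second on the SL2 side, with no overlap. Replicate means were -0.05, 0.16 and -0.02. The 2 spots had a median gap of 0.26, larger than that of 88.2% of clones. On the third SL2-in-Cy5 array they read -0.50 and 0.01, so the sign of single spots was less uniform than that of their means.

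**Figure D2:**
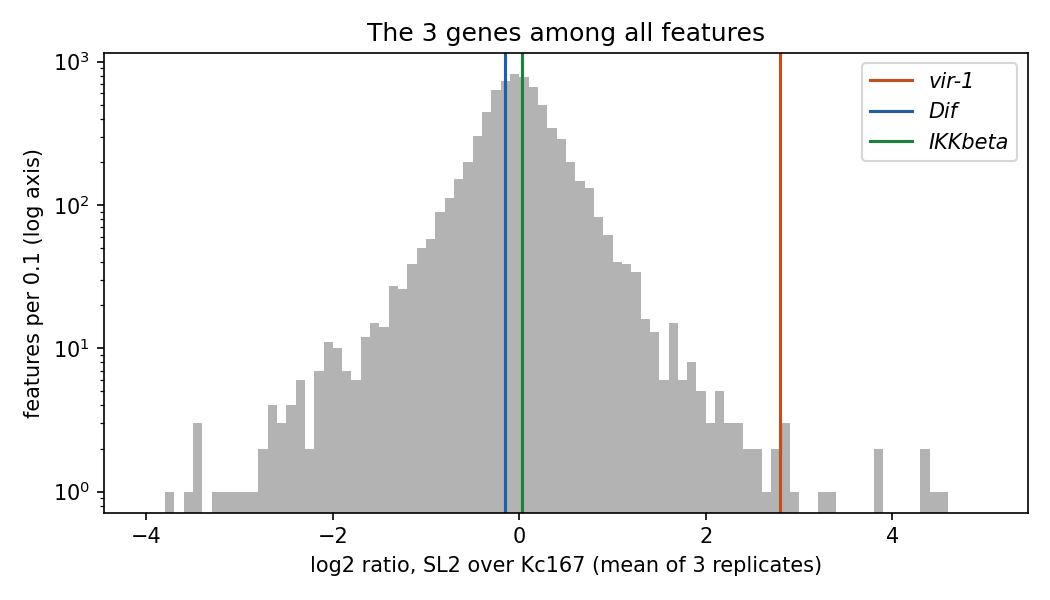
Number of features per 0.1 of the mean log2 ratio of SL2 over Kc167 (log vertical axis) for the 7201 features, with vertical lines at vir-1, Dif and IKKbeta. Dif at -0.16 and IKKbeta at 0.03 fall in the centre of the distribution and vir-1 at 2.79 in its upper tail.

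The exchange of dyes gave another comparison: whether a gene has the same ratio in both orientations. The genes were not chosen on it, but it used the same 6 arrays, of which earlier results were known. The ratio of IKKbeta was lower with SL2 in Cy5, with means of -0.23 ± 0.01 there and 0.29 ± 0.23 with Kc167 in Cy5 (SD, n = 3 each). The difference was -0.53 ± 0.14 (SE; limma adjusted p = 0.037), and its size exceeded that of 88.3% of features. The difference of vir-1 was -0.22 ± 0.15 (limma adjusted p = 0.36), from means of 2.68 ± 0.16 with SL2 in Cy5 and 2.90 ± 0.25 with Kc167 in Cy5. That of Dif was 0.14 ± 0.17 (limma adjusted p = 0.61), from means of -0.09 ± 0.20 with SL2 in Cy5 and -0.23 ± 0.30 with Kc167 in Cy5. Neither passed.

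IKKbeta was the 1 gene of the 3 called, where 12.2% of all 7201 features were called in either direction and 5.5% as lower with SL2 in Cy5. The orientations did not overlap, with the lower values on the SL2-in-Cy5 arrays, for 18.8% of features. A sign below 0 on all SL2-in-Cy5 arrays and above 0 on all Kc167-in-Cy5 arrays, as IKKbeta had it, was found for 2.67%. The call for IKKbeta did not hold when any replicate number was left out (adjusted p between 0.079 and 0.22 by limma). It also failed without any single array other than the first Kc167-in-Cy5 array, including the array that stood apart (limma adjusted p = 0.078). Its difference kept its sign in each of these fits, between -0.62 and -0.40. Per the labels, the laser power and detector gain for Cy5 were 100 and 66 on the SL2-in-Cy5 arrays and 95 and 60 on the Kc167-in-Cy5 arrays; their part in the result was not tested.

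**Figure D3:**
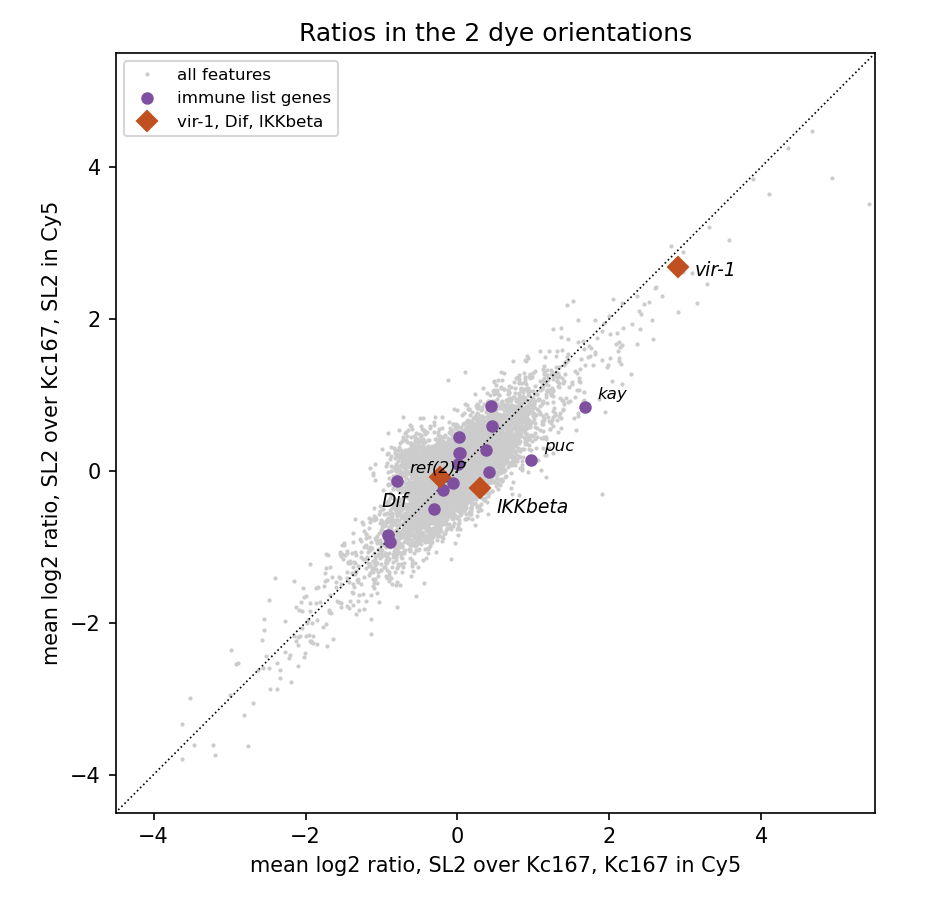
Mean log2 ratio of SL2 over Kc167 on the 3 SL2-in-Cy5 arrays (vertical) against the mean on the 3 Kc167-in-Cy5 arrays (horizontal) for all features (grey), 16 measured genes of immune lists (purple) and vir-1, Dif and IKKbeta (orange); the dotted line marks equal ratios. The vir-1 point lies near the line, at 2.68 with SL2 in Cy5 and 2.90 with Kc167 in Cy5, and IKKbeta lies below it, at -0.23 with SL2 in Cy5 and 0.29 with Kc167 in Cy5.

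Other genes of immunity differed between the lines about as often as all features. Beside the 3 genes, 202 genes of immune pathways were listed, and 16 of them were measured under a name on all arrays. By limma with adjustment over all features, 11 of the 16 differed, or 68.8%, against 60.2% of all features. Positive ratios made up 6 of the 11 calls and negative ones 5; over all features, 28.4% were called on the SL2 side and 31.8% on that of Kc167. Their median ratio was 0.13 and their median size 0.36, against -0.02 and 0.25 over all features. No listed antimicrobial peptide gene, no gene of peptidoglycan recognition and no listed virus-induced gene other than vir-1 was measured under a name.

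In the Imd list, 3 of 3 measured genes other than IKKbeta differed by limma, where 60.2% of all features did, so the count itself sets them little apart. Their products are known to restrain or edit the signal. The gene dnr1, whose product restrains the caspase Dredd, was on the Kc167 side, with replicate ratios of -1.06, -0.93 and -0.76 and a mean of -0.91 ± 0.08 (SE, n = 3; limma adjusted p = 4.7e-06). The deubiquitinase gene scny was on the same side with -0.45, -0.15 and -0.62 and a mean of -0.40 ± 0.09. It did not pass in the Kc167-in-Cy5 arrays alone (-0.31; limma adjusted p = 0.11). CYLD, the gene of another deubiquitinase, was on the SL2 side with 0.55, 0.48 and 0.55 and a mean of 0.53 ± 0.06. The Imd genes with calls thus lay on both sides of 0.

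The Toll list had 2 measured genes beside Dif, and by limma neither passed, where 60.2% of all features did. Of the 2, hep had an unadjusted p under 0.05. With so few genes the count does not set the list apart. Toll-7, the gene of a Toll-family receptor known for recognising vesicular stomatitis virus, had 0.18, -0.02 and 0.24, with a mean of 0.13 ± 0.07 (SE, n = 3; limma adjusted p = 0.14). The other was hep, which encodes a kinase that activates JNK and also stood in the stress signalling list. In flies that signalling branches off the Imd pathway, so hep says little about the Toll pathway. The gene hep had a mean of 0.20 ± 0.08 (limma adjusted p = 0.055). It had -0.02 in the SL2-in-Cy5 arrays alone (limma adjusted p = 0.89) and 0.42 in the Kc167-in-Cy5 arrays alone (limma adjusted p = 0.043), while the difference of the orientations itself did not pass (limma adjusted p = 0.15).

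Of the JAK/STAT list, to which the known control of vir-1 belongs, 1 of 14 genes was measured. Socs16D, a gene of the SOCS family, whose best known fly member Socs36E dampens JAK/STAT signalling, had 0.31, 0.10 and 0.27. Its mean was 0.23 ± 0.07 (SE, n = 3, limma adjusted p = 0.017), on the SL2 side, where 28.4% of all features were called. It was 0.45 with SL2 in Cy5 alone and 0.01 with Kc167 in Cy5 alone, where it did not pass, and it did not pass without replicate 1 or replicate 3.

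The antiviral RNA interference list had 5 measured genes of 19, of which 2 were called with positive ratios and 1 with a negative ratio. That is 60% called, against 60.2% of all features, so the count does not set the list apart. Dcr-2, which encodes the dicer that cuts viral double-stranded RNA, had 0.02, -0.04 and 0.17, and its mean of 0.05 ± 0.07 did not pass (limma adjusted p = 0.56). Hen1, whose product methylates small RNAs, had -0.11 ± 0.07 and did not pass either. Fmr1, the gene of an RNA-binding protein linked to RNA interference, had 0.70, 0.57 and 0.68 and a mean of 0.65 ± 0.07. Cbp20, a cap-binding subunit gene, had a mean of 0.32 ± 0.06, and it missed the threshold in the SL2-in-Cy5 arrays alone (limma adjusted p = 0.053). The gene ref(2)P, the fly p62 known for its part in resistance to sigma virus, was on the Kc167 side with -0.47 ± 0.08. Its ratio differed between the orientations, with means of -0.13 with SL2 in Cy5 and -0.80 with Kc167 in Cy5, and it did not pass in the SL2-in-Cy5 arrays alone.

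Stress kinase signalling, which in flies branches off the Imd pathway towards JNK, had 5 measured genes of 28. The Fos gene kay had 1.04, 1.30 and 1.43 and the largest mean of the 16 genes, 1.26 ± 0.08 (SE, n = 3; limma adjusted p = 9.8e-07). The JNK phosphatase gene puc, itself a target of JNK signalling, had 0.56 ± 0.07. Both were on the SL2 side and both had lower ratios with SL2 in Cy5, where puc alone did not pass (0.15; limma adjusted p = 0.30). Mekk1, an upstream kinase gene, was on the Kc167 side with -0.88 ± 0.08, and grnd, the gene of a TNF receptor, had 0.12 ± 0.07 and did not pass. Spn27A, the gene of a serpin that limits melanisation, had -0.23 ± 0.07 and passed on the Kc167 side. It did not pass with Kc167 in Cy5 alone or without replicate 3.

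**Figure D4:**
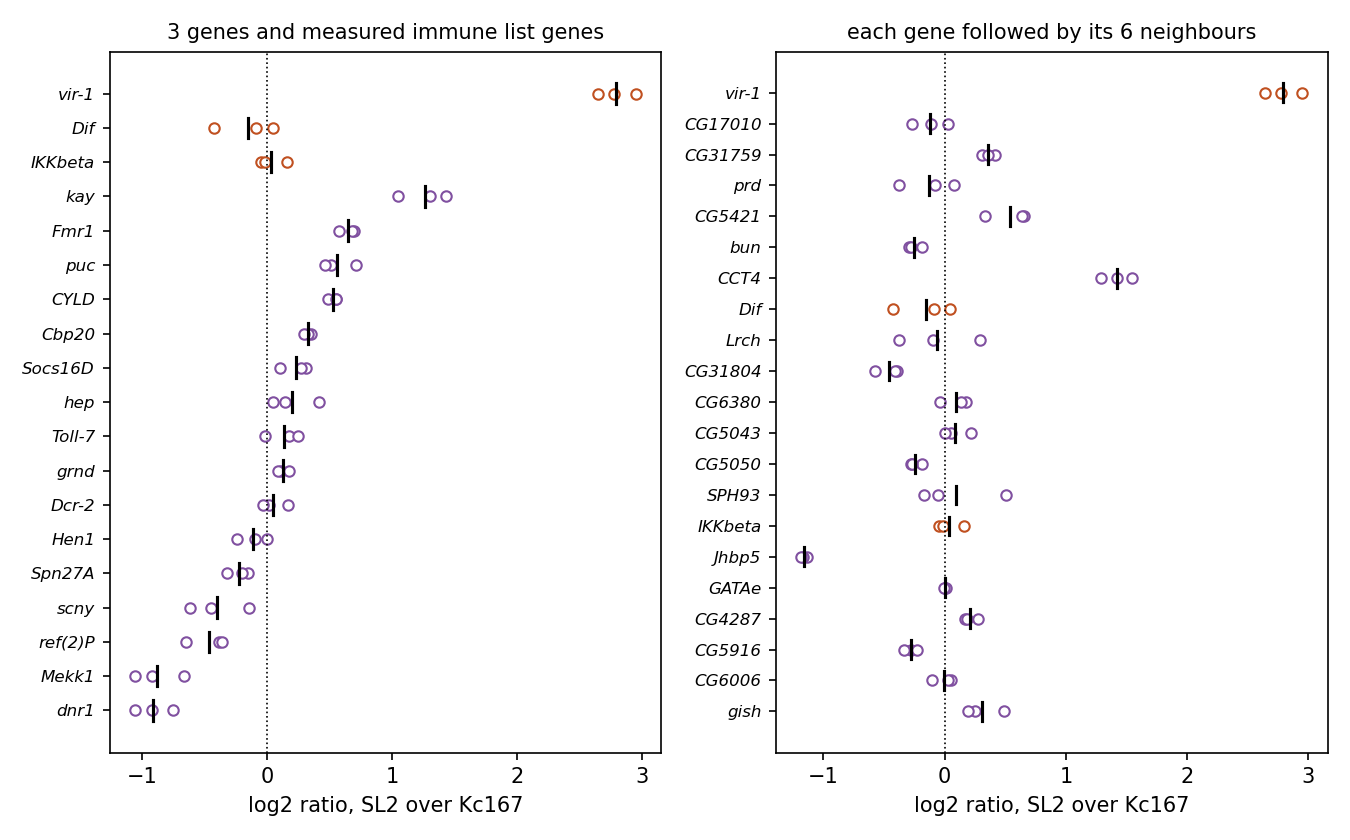
Log2 ratio of SL2 over Kc167 (horizontal axis) in the 3 replicates (open points) with their mean (bar). The left panel has vir-1, Dif and IKKbeta above the 16 measured immune list genes in order of their mean, and the right panel has each of the 3 genes above its 6 nearest measured named genes. The vir-1 points lie between 2.64 and 2.95, right of those of every other gene plotted, and vir-1 was selected for its large ratio. The next highest means are 1.42 for CCT4 and 1.26 for kay.

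The genes nearest to vir-1 on its chromosome arm had ratios between -0.25 and 1.42. That these are smaller than the ratio of vir-1 is no finding, since vir-1 was selected for its large ratio. vir-1 and Dif lie on arm 2L and IKKbeta on 3R in the RefSeq table, which was used for gene order only. For each gene the 3 nearest measured named genes on each side were taken, between 1 and 34 places away in the order of annotated genes. Of the 6 genes around vir-1, 3 were called with positive ratios and 1 with a negative ratio, or 66.7% against 60.2% of all features. CG17010, 2 places away and the nearest, had -0.12 ± 0.08 (SE, n = 3) and did not pass, and CG31759, 8 places away, had 0.36 ± 0.07. On the other side, CG5421 had 0.54 ± 0.08 and bun, the gene of a TSC22-family protein, had -0.25 ± 0.07. With Kc167 in Cy5 alone, bun did not pass (-0.23, limma adjusted p = 0.086). CCT4, a chaperonin subunit gene 28 places away, had 1.42 ± 0.07. The pair-rule gene prd had -0.13 ± 0.09 and did not pass. The median of the 6 was 0.12.

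Around Dif, 2 of 6 genes were on the Kc167 side, CG31804 with -0.46 ± 0.07 and CG5050 with -0.25 ± 0.07 (SE, n = 3 each). CG5050 did not pass with SL2 in Cy5 alone (-0.17, limma adjusted p = 0.19) or without replicate 3. The other 4 genes around Dif did not pass and lay between -0.06 and 0.09. The 6 ratios had a median of 0.01, against -0.16 for Dif and -0.02 for all features. Around IKKbeta, 2 genes were on each side. Jhbp5, the adjacent gene in the annotated order, had -1.16 ± 0.06 (limma adjusted p = 3.3e-07), with replicate ratios of -1.14, -1.17 and -1.18. CG5916 had -0.28 ± 0.07, CG4287 0.21 ± 0.07 and gish, a casein kinase gene, 0.31 ± 0.08, while GATAe and CG6006 lay within 0.01 of 0. CG5916 and gish did not pass with Kc167 in Cy5 alone (-0.07 and 0.17, limma adjusted p = 0.60 and 0.20). CG4287 did not pass with SL2 in Cy5 alone (0.06, limma adjusted p = 0.58) or without replicate 2 or replicate 3. Over the 18 neighbours, 10 were called, or 55.6% against 60.2% of all features. By limma, 0 of the 18 had a difference between the dye orientations that passed after adjustment, against 12.2% of all features, and 2 had an unadjusted p under 0.05, against 2211 of 7201; the 6 genes around IKKbeta had orientation differences between -0.42 and 0.29.

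The named genes most like each of the 3 were found by the root mean square difference of the log2 ratio over the 6 arrays, a description in which all genes share the arrays. vir-1 had 1 named gene within 0.25, CG8292 at 0.12, whose mean ratio was 2.79. The next were the odorant-binding protein gene Obp99c at 0.41, with a mean ratio of 2.52, regucalcin at 0.59, the neprilysin-like Nepl21 at 0.60 and CG3457 at 0.78. For Dif, 176 named genes lay within 0.25, and for IKKbeta 148. These counts follow from where each gene lies among the ratios. The quartiles of all features were -0.27 and 0.23, and vir-1 was selected for its large ratio. The nearest to Dif were MnM (0.09), Cad87A (0.13), CG10804 (0.13), dj (0.14) and PIG-O (0.14). The nearest to IKKbeta were CG6652 (0.10), CysRS (0.12), Ctf4 (0.13), Sf3a2 (0.13) and Ets65A (0.13). Having been picked for their likeness over these arrays, they carry no test of it.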

How the data were processed

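The deposited values are 1 log2 ratio per spot (base taken as 2). Per the labels, the authors computed them after a normalisation whose method, like the log base and the direction, is not given in the sources used here. Per the labels, 80 µg of RNA went into each labelling, hybridisation lasted 16 h, and spots were quantified in QuantArray version 3 (adaptive method, background not subtracted). Intensities were not analysed here, so dim spots were not filtered.

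Of 16896 spots, 5666 had a single symbol, 152 had several, and the rest were unnamed here; symbols were updated by Entrez identifier through the RefSeq table of Drosophila melanogaster. The 2 spots of a clone, then the clones of a gene, were averaged. Features needed values on all 6 arrays, which left 7201; 867 clones lacked one. Arrays with SL2 in Cy5 held 16710 to 16844 values and arrays with Kc167 in Cy5 held 15104 to 15885. Columns of opposite orientation correlated positively, so no sign was turned.

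The line ratio (mean of 3 replicates against 0) and the orientation difference (3 against 3 arrays) were each fitted in R 4.3.3 with limma 3.58.1 (lmFit, then eBayes). Two-sided p-values were adjusted by Benjamini-Hochberg across all 7201 features and called under 0.05. Standard errors (SE) are the moderated ones. The steps were run on simulated independent noise with added differences, without array or pairing effects, which checks the code and not the calls. The genes, lists and rules were chosen with earlier results of these data known: all measured list genes, the 5 most similar named genes and the 3 nearest measured named genes per side are named. Alternatives covered replicates, single arrays, orientation, scaling, printing order, the variance model and the log base. Figures were drawn with matplotlib 3.10.9.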

Additional observations from a re-analysis of the deposited data

Results flagged for a closer look

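Among vir-1, Dif, IKKbeta and the 16 measured immune list genes, 4 had ratios that differed between the dye orientations. The test was limma with adjustment over all 7201 features, of which 12.2% differed. IKKbeta had an orientation difference (SL2 in Cy5 minus Kc167 in Cy5) of -0.53 on the log2 scale (limma adjusted p = 0.037). The call for IKKbeta failed in 11 of 18 alternatives. Its ratio was below 0 on 3 of 3 arrays with SL2 in Cy5 and above 0 on 3 of 3 with Kc167 in Cy5. The Fos gene kay had -0.84 (limma adjusted p = 0.014), from means of 0.84 with SL2 in Cy5 and 1.68 with Kc167 in Cy5. The JNK phosphatase gene puc had -0.83 (limma adjusted p = 0.017), from means of 0.15 with SL2 in Cy5 and 0.97 with Kc167 in Cy5. The gene ref(2)P had 0.67 (limma adjusted p = 0.030), from means of -0.13 with SL2 in Cy5 and -0.80 with Kc167 in Cy5. For kay, puc and ref(2)P both orientation means had the same sign. Their calls held with the replicate number as a block (limma adjusted p = 0.017, 0.026 and 0.036, in that order). The other alternatives were not examined for these genes one by one. Over all features, limma's linear model without pooling of variance called only 3 between the orientations in place of 877.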

How the results depend on the processing

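The ratio of vir-1 stayed within 1 SD of replicates in 16 of 17 alternatives and was 4.03 with the values read as natural logarithms. That of Dif stayed within 1 SD in all 17, between -0.26 and -0.02. That of IKKbeta was -0.23 in the SL2-in-Cy5 arrays alone and 0.29 in the Kc167-in-Cy5 arrays alone, and between -0.10 and 0.16 with a replicate or an array left out. Without pooling of variance between features, limma's linear model called 1926 features between the lines in place of 4332, 5 immune list genes in place of 11, 4 neighbour genes in place of 10, and 3 features between the orientations in place of 877. The orientation count was 288 with the local median in printing order removed, and between 49 and 586 with a replicate or array left out, where fewer arrays entered the fit. The orientation difference of IKKbeta kept its sign in all 18 alternatives. It did not pass limma's threshold with the local median removed (-0.44; adjusted p = 0.092), without pooling (-0.53; adjusted p = 0.14), with the replicate number as a block (-0.53; adjusted p = 0.051) or in 8 of 9 fits with a replicate or array left out (-0.62 to -0.40; adjusted p between 0.048 and 0.22 over the 9). That of vir-1 was 0.17 after quantile normalisation. That of Dif was -0.0069 with the local median removed and between -0.032 and 0.24 with a replicate or array left out, its negative value of -0.032 being that without the third Kc167-in-Cy5 array. The causes were not tested. Deviations of same-numbered arrays from their orientation means correlated at -0.07, 0.11 and -0.10, and not every array correlated best with its own number, so the arrays share only a number. With the number as a block, 4277 features, 11 immune list genes and 10 neighbour genes differed between the lines, and 681 features differed between the orientations.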
